A study of Mus musculus with 24 samples.

Results

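The cytosolic ribosomal protein genes were examined in MS03 mouse Schwann cells treated with focal adhesion kinase (FAK) inhibitors or degraders. A gene was taken when its symbol was Rps or Rpl with a number and at most one closing a or x, Rplp0 to Rplp2, or Rpsa, when it was not a pseudogene, and when it averaged at least 20 CPM, a gene's count scaled to a library of fixed size, over the 24 libraries. This gave 76 genes of the 49315 in the table, 30 of the small and 46 of the large subunit, spread over 19 chromosomes. All 76 were among the 16070 genes with enough counts to be tested. The level cut removed none of them, since the lowest, Rpl24, averaged 129 CPM by library totals. Rps3a1, Fau and Rack1 also encode ribosomal proteins but carry other names, and are given separately.

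MS03 is 1 mouse schwannoma line of the Schwann cell lineage that lacks Nf2, the tumour suppressor lost in NF2-related schwannomatosis. All 24 libraries, the controls included, came from these Nf2-/- cells, so nothing here compares them with cells that have Nf2. Cells were exposed for 24 h to the vehicle dimethyl sulfoxide (DMSO), to 1 of 4 FAK kinase inhibitors at 1 µM (defactinib, VS-4718, GSK2256098 or IN10018, also called ifebemtinib), or to 1 of 3 proteolysis-targeting chimeras (PROTACs), bifunctional molecules that bring FAK to a ubiquitin ligase for destruction. PROTAC FAK degrader 1 was used at 1 µM and GSK215 and BSJ-04-0146 at 0.1 µM, so that the degraders were not all dosed alike. Each of the 8 groups held 3 libraries labelled as biological replicates, made from total RNA by poly(A) selection, and p-values measure the spread between such samples of 1 line.

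Ribosomal proteins are made in near-equal amounts and assembled with ribosomal RNA in the nucleolus into the small subunit, which reads the messenger, and the large subunit, which joins amino acids. In mammals most of their mRNAs begin with a 5′ terminal oligopyrimidine (TOP) tract, a run of C and T that lets the mechanistic target of rapamycin (mTOR) and the RNA-binding protein LARP1 control how many of these mRNAs are translated and how long they are kept. They are among the most abundant mRNAs of a growing cell.

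The tract was looked for in the RefSeq sequence (GRCm38.p6) from 15 bases before to 15 bases after each annotated start, which is an annotated position and was not measured here. Of the 76 genes, 56 had such a window, 66 windows in all. A run of at least 8 pyrimidines lay in 39.4% of these windows and in 12.0% of 32851 windows over all genes, and CTTTC was found on the gene strand of 24.2% against 4.05%. On the other strand CTTTC was in 3.03% and 3.6%. The windows below belong to genes described in the results, printed 5′ to 3′ on the gene strand with the longest pyrimidine run in capitals, the first 5 with a run of 7 or more and the last 3 with a short one.
Rpl7a, chr2:26910792-26910821, plus strand: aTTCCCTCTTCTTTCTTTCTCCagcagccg
Rpl28, chr7:4792950-4792979, plus strand: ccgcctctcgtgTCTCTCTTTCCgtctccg
Rpl4, chr9:64173372-64173401, plus strand: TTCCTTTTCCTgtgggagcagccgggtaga
Rps6, chr4:86857353-86857382, minus strand: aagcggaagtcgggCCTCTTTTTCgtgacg
Rps12, chr10:23787195-23787224, minus strand: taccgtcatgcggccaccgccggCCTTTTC
Rps28, chr17:33824548-33824577, minus strand: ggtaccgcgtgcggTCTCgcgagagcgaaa
Rpl24, chr16:55966260-55966289, plus strand: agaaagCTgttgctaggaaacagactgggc
Rplp0, chr5:115559452-115559481, plus strand: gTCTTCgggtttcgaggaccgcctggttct
A short run says only that these letters are not in this window.

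Libraries held 14472462 to 27449516 counts on genes. The 9 libraries of the degraders, at 14472462 to 21588406 counts, were all smaller than the other 15. No member fell below 1488 counts in any library. Nf2 was counted at 155 to 193 CPM in every library. How Nf2 was lost in this line is not given in the sources used here. The counts are per whole gene, and whether a working product is absent was not tested. Ptk2, the FAK gene, was at 77.4 to 102 CPM. Of 9 Schwann cell markers 6 averaged over 1 CPM in each group, with a summed level of 43.4 to 44.7 CPM in DMSO, 29.8 to 33.9 CPM with PROTAC FAK degrader 1, 61.7 to 66.1 CPM with GSK2256098, 63.9 to 70.8 CPM with defactinib, 100 to 112 CPM with VS-4718, 196 to 219 CPM with BSJ-04-0146, 218 to 227 CPM with GSK215 and 45 to 48.1 CPM with IN10018, and S100b and Egr2 stayed at or under 18 counts. The macrophage markers Ptprc, Adgre1 and Itgam had at most 1 count in any library, the fibroblast marker Lum had 0, and 4 endothelial markers summed to at most 0.765 CPM. The macrophage markers summed, nearly all of it Cd68, to 3.35 to 3.86 CPM in DMSO, 4.28 to 4.97 CPM with defactinib, 4.81 to 5.99 CPM with VS-4718, 3.94 to 4.04 CPM with GSK2256098, 3.49 to 4.21 CPM with IN10018, 11.1 to 12.1 CPM with PROTAC FAK degrader 1, 6.25 to 8.02 CPM with GSK215 and 7.95 to 9.5 CPM with BSJ-04-0146. The 4 fibroblast markers, mostly Pdgfra, summed to 11.5 to 13.2 CPM in DMSO, 9.03 to 9.73 CPM with PROTAC FAK degrader 1, 26 to 30.1 CPM with GSK215, 26.4 to 29.7 CPM with BSJ-04-0146 and 12 to 14.7 CPM with the 4 kinase inhibitors. The levels of all 3 marker lists therefore moved with the degraders, and their part in the results on ribosomal protein genes was not tested. In a bulk sample fewer cells of a type and less RNA per cell cannot be told apart.

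Together the 76 genes took 5.01% ± 0.0631 of all counts in DMSO (mean ± SD, n = 3 here and below). Their share was 4.04% ± 0.007 with GSK215, 4.11% ± 0.0583 with VS-4718, 4.39% ± 0.108 with defactinib, 4.64% ± 0.208 with BSJ-04-0146 and 4.71% ± 0.117 with GSK2256098. With IN10018 it was 5.32% ± 0.0761, and with PROTAC FAK degrader 1 it was 6.66% ± 0.328. All 15 libraries of the first 5 drugs therefore lay below the 3 DMSO libraries and all 6 of the last 2 lay above them. In this order the neighbours defactinib and BSJ-04-0146, and BSJ-04-0146 and GSK2256098, overlapped, and the other neighbours did not.

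The 3 PROTAC FAK degrader 1 libraries gave shares of 7.033%, 6.501% and 6.434%, so that replicate 1 stood above the other two. The share taken by mitochondrially encoded genes moved the other way in that group, at 1.87% ± 0.0182 against 3.05% ± 0.0185 in DMSO, and was 4.05% ± 0.207 with GSK215, 3.72% ± 0.379 with BSJ-04-0146, 3.73% ± 0.274 with defactinib, 3.29% ± 0.0669 with GSK2256098, 3.10% ± 0.0736 with VS-4718 and 2.70% ± 0.0932 with IN10018. With the mitochondrially encoded genes left out of the total, the ribosomal protein share was 5.17% in DMSO, 6.78% with PROTAC FAK degrader 1 and 4.21% with GSK215. A share is relative to all other RNA in the library, so a rise in it and a fall in the rest cannot be told apart.

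**Figure D1:**
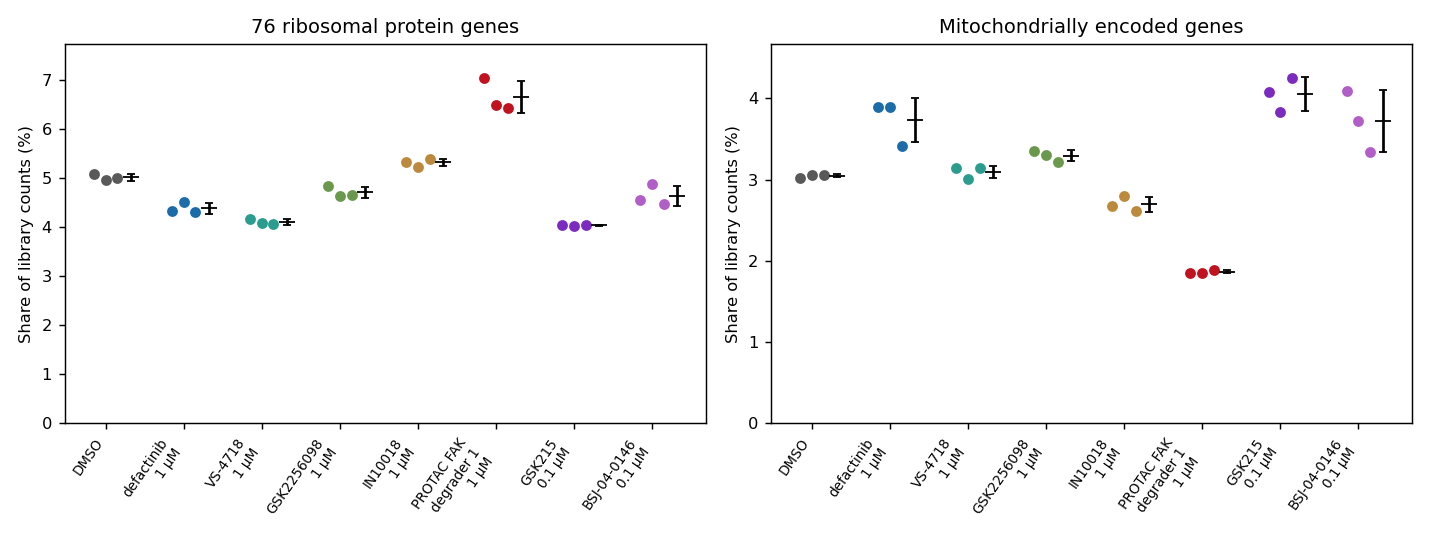
Share of all gene counts, in percent, taken by the 76 ribosomal protein genes (left) and by the mitochondrially encoded genes (right) in each of the 24 libraries. Points are libraries in replicate order, bars are mean ± SD of 3; with PROTAC FAK degrader 1 the ribosomal share was 6.66% and the mitochondrial share 1.87%, the highest and the lowest of the 8 groups.

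Levels of the members were compared with each other per kilobase of 1 protein-coding GENCODE transcript each. Rpl8, a protein of the peptidyl transferase region, stood highest at 1714 CPM per kilobase over all libraries, followed by Rplp1 at 1610 and Rplp0 at 1607 CPM per kilobase. Rps15a, Rps20 and Rpl22 stood lowest at 86.2, 99.2 and 136 CPM per kilobase, and the transcripts chosen for them were long, at 5179, 3706 and 2051 bases. Without the length correction Rplp0, Rpsa and Rpl4 took the most counts and Rpl24, Rpl38 and Rps29 the fewest. Of the 76 genes, 71 had their highest group mean with PROTAC FAK degrader 1, 3 with IN10018 and 2 in DMSO. Their lowest group mean was with GSK215 for 64, with VS-4718 for 10 and with defactinib for 2. The highest group mean was between 1.32 times the lowest (Rpl24) and 2.36 times the lowest (Rpl3), with a median of 1.67 times.

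Each drug was then compared with the same 3 DMSO libraries, gene by gene, with p-values from the quasi-likelihood test of edgeR and a Benjamini-Hochberg adjustment over all 16070 genes, and a gene is said to have risen or fallen when its adjusted p was under 0.05. CPM values of single libraries are scaled by trimmed mean of M-values (TMM) factors, are listed in the order of replicates 1 to 3, and compare a gene between libraries but not with other genes. Because the controls are shared, the 7 comparisons are not independent of each other. Members that did not pass are named after their values were seen. Over all genes tested the median log2 fold change lay between -0.0044 and 0.021 in these comparisons, so the medians given for the members are close to differences from the typical gene.

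**Figure D2:**
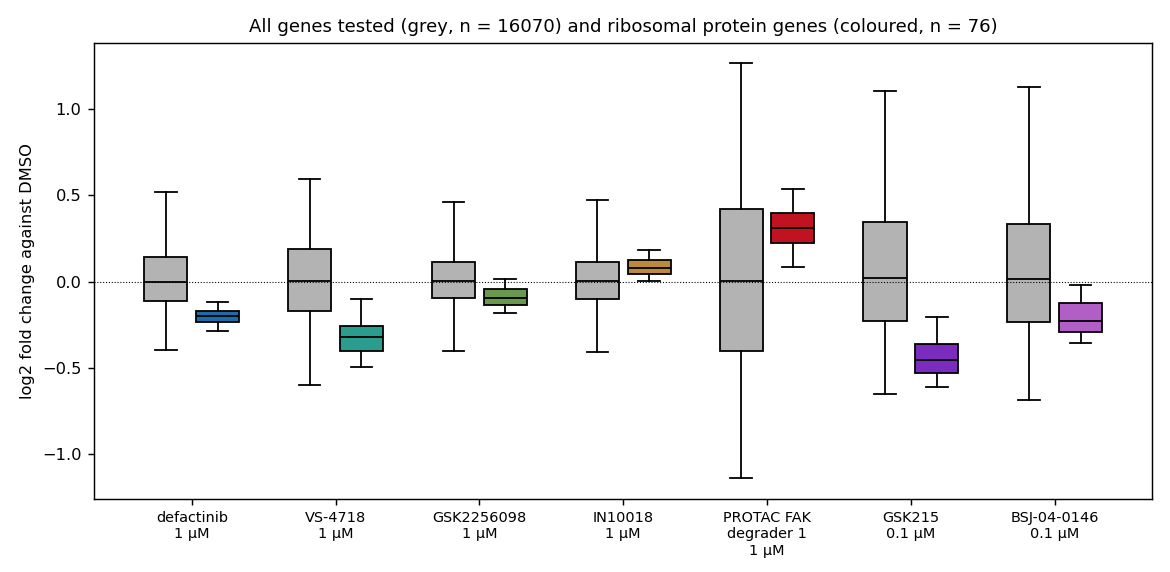
Log2 fold change against DMSO for each drug, over all 16070 genes tested (grey) and the 76 ribosomal protein genes (coloured). Boxes are quartiles with the median, whiskers reach the 5th and 95th percentiles; the member medians run from -0.45 with GSK215 to 0.31 with PROTAC FAK degrader 1, while the medians of all genes stay within 0.021 of 0.

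Defactinib lowered most of the set by a small and even amount. Of the 76 genes 69 fell and 7 did not pass, where 11% of all genes fell and 11.4% rose. With a minimum change of 1.2-fold 8 members fell. The median log2 fold change was -0.20 (a 12.9% decrease) with a range of -0.39 to -0.095, and in 67 members no treated library reached up to the DMSO range, as in 18.2% of all genes. No member rose by edgeR, and the count of rises was also 0 by unadjusted p, DESeq2 and limma. The SD of the fold changes over members, 0.054, was the smallest of the 7 drugs.

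Rps12, a small-subunit protein of the beak, was at 569, 581 and 536 CPM with defactinib and at 739, 729 and 738 CPM in DMSO (log2 fold change -0.39, SE 0.048, edgeR adjusted p = 1.1e-07). Rpl26, which lies beside the exit of the peptide tunnel, was at 473, 494 and 456 CPM against 578, 586 and 590.3 CPM (log2 fold change -0.30, SE 0.043, edgeR adjusted p = 1.4e-06). Rpl7 was at 968, 959.6 and 914 CPM against 1166, 1168 and 1153 CPM (log2 fold change -0.30, SE 0.036, edgeR adjusted p = 6.2e-08). In these 3 genes, which had the largest decreases, no treated library reached the lowest DMSO library. The 7 that did not pass were Rpl29, Rpl38, Rpl39, Rpl41, Rps21, Rps28 and Rps29, at log2 fold changes of -0.18 to -0.095.

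VS-4718 lowered as many members but by more and less evenly. Again 69 fell and 7 did not pass, where 18.9% of all genes fell and 20.4% rose. The median log2 fold change was -0.32 (a 19.9% decrease) and the range was -0.64 to 0.0017. In 69 members the libraries lay wholly below DMSO, as in 22.8% of all genes. No rise passed by edgeR, unadjusted p, DESeq2 or limma.

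With VS-4718 Rps12 was at 489.6, 446 and 484 CPM, the furthest of all members below its DMSO level (log2 fold change -0.64, SE 0.048, edgeR adjusted p = 1.0e-13). Rpl7 was at 804, 787 and 838 CPM (log2 fold change -0.52, SE 0.036, edgeR adjusted p = 4.5e-15). Rpl17, another protein at the tunnel exit, was at 430.5, 428 and 455 CPM against 636, 621 and 611 CPM in DMSO (log2 fold change -0.51, SE 0.038, edgeR adjusted p = 7.6e-14). All 9 treated values lay below the DMSO libraries of the same gene. By contrast Rpl27 was at 719.8, 712 and 589.7 CPM against 701, 665 and 653 CPM, with overlapping libraries and a log2 fold change of 0.0017 (edgeR adjusted p = 0.98). Rpl28, Rpl29, Rpl31, Rps16 and Rps28 were also among those that did not pass.

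GSK2256098 gave the smallest decreases. Here 29 members fell and 47 did not pass, beside 6.09% of all genes falling and 6.36% rising, with a median log2 fold change of -0.096 (a 6.44% decrease) and a range of -0.27 to 0.12. In 44 members the libraries lay wholly below DMSO and in 2 wholly above, as in 15.8% and 15.3% of all genes. No member rose by edgeR, DESeq2 or limma, and 1 did at an unadjusted p under 0.05. This count leaned on single libraries, with 18 members falling when GSK2256098 replicate 2 or replicate 3 was left out and 19 without DMSO replicate 1.

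Rpl7 was at 986, 956 and 942 CPM with GSK2256098 (log2 fold change -0.27, SE 0.036, edgeR adjusted p = 4.7e-07). Rps12 was at 667, 630.0 and 618 CPM (log2 fold change -0.20, SE 0.048, edgeR adjusted p = 0.0031). Rps15a was at 463, 426 and 414 CPM against 508, 499 and 478 CPM in DMSO (log2 fold change -0.19, SE 0.042, edgeR adjusted p = 0.0020). The libraries of all 3 genes lay below DMSO.

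IN10018 stood apart from the other 3 kinase inhibitors in direction. Here 17 members rose and 59 did not pass, beside 6.44% of all genes rising and 6.85% falling, with a median log2 fold change of 0.081 (a 5.76% increase) and a range of -0.097 to 0.22. In 42 members the libraries lay wholly above DMSO and in 2 wholly below, as in 15.2% and 15.9% of all genes. No member fell by edgeR, DESeq2 or limma, and 1 did at an unadjusted p under 0.05. The count of 17 became 5 without DMSO replicate 2, 7 without DMSO replicate 3 or IN10018 replicate 3, and 9 without IN10018 replicate 1. With GC content and length trends removed it was 5, with no filter on low counts 29, and in a fit of only the 6 libraries compared 46, with 1 falling. With a minimum change of 1.2-fold the count was 0. No share over all genes was taken for these alternative counts, and 6.44% and 6.85% belong to the main fit.

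Rps14, on the platform of the small subunit, was at 852, 828 and 896 CPM with IN10018 and 738, 722 and 748 CPM in DMSO (log2 fold change 0.22, SE 0.045, edgeR adjusted p = 5.6e-04). Rps2, at the entry of the mRNA channel, was at 716, 703 and 708 CPM against 636, 602 and 600.5 CPM (log2 fold change 0.21, SE 0.043, edgeR adjusted p = 7.1e-04). Rpl37a was at 353, 350.5 and 352 CPM against 312, 295 and 314 CPM (log2 fold change 0.20, SE 0.049, edgeR adjusted p = 0.0055). No treated library of these 3 genes reached down to DMSO. Counts assigned to Rps2 are uncertain, as described for its pseudogene Rps2-ps10, which did not pass with IN10018 (log2 fold change 0.11, edgeR adjusted p = 0.080).

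PROTAC FAK degrader 1 raised the set. Of the 76 genes 69 rose, 1 fell and 6 did not pass, where 34.1% of all genes rose and 32.7% fell. The median log2 fold change was 0.31 (a 24% increase) with a range of -0.16 to 0.79. In 67 members the treated libraries lay wholly above DMSO and in 1 wholly below, as in 35.7% and 34% of all genes. Without replicate 1, the library with the highest share, 65 members rose and the median was 0.24.

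Rpl3, a core protein beside the peptidyl transferase centre, was at 1614, 1483 and 1433 CPM with PROTAC FAK degrader 1 and at 879.7, 865 and 872 CPM in DMSO, 1.73-fold higher (log2 fold change 0.79, SE 0.036, edgeR adjusted p = 7.2e-22). Rpl28 was at 929, 822 and 813 CPM against 573, 536 and 568 CPM (log2 fold change 0.61, SE 0.052, edgeR adjusted p = 1.9e-13). Rpl22, which also binds other RNAs and is not essential for the ribosome, was at 446, 407 and 392 CPM against 283, 266 and 280.1 CPM (log2 fold change 0.59, SE 0.043, edgeR adjusted p = 2.6e-15). These 3 had the largest increases, and in each every treated library lay above the DMSO libraries.

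Rpl7a, a large-subunit protein whose gene hosts small nucleolar RNAs in its introns, went the other way, at 1330, 1282 and 1236 CPM against 1433, 1413 and 1464 CPM (log2 fold change -0.16, SE 0.035, edgeR adjusted p = 8.5e-05). Its 3 treated libraries all lay below DMSO, and it was the only member to fall. Rpl24 was at 136, 148 and 139 CPM against 148, 151 and 146 CPM and Rpl15 at 547, 485 and 471 CPM against 524, 489 and 492 CPM, overlapping in both cases (log2 fold change -0.070, SE 0.046, edgeR adjusted p = 0.18 for Rpl24, and log2 fold change -0.00048, SE 0.042, edgeR adjusted p = 0.99 for Rpl15). Rpl27, Rpl38, Rps21 and Rps29 were the remaining 4 that did not pass. In Rps29 the 3 treated libraries, at 197, 139 and 150.1 CPM, straddled the DMSO level of 152, 147 and 144 CPM, with replicate 1 the highest.

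GSK215 lowered nearly the whole set at 0.1 µM. Here 74 members fell and 2 did not pass, beside 27.2% of all genes falling and 27.4% rising, with a median log2 fold change of -0.45 (a 27% decrease) and a range of -0.63 to -0.060. In 75 members the libraries lay wholly below DMSO, as in 30.2% of all genes. No member rose by edgeR, unadjusted p, DESeq2 or limma.

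Rps29, one of the smallest ribosomal proteins, was at 97.7, 96.1 and 91.9 CPM with GSK215 (log2 fold change -0.63, SE 0.079, edgeR adjusted p = 6.8e-09). Rpl38 was at 100.3, 91.1 and 89.8 CPM against 148, 137 and 148 CPM in DMSO (log2 fold change -0.63, SE 0.072, edgeR adjusted p = 1.2e-09). Rps12 was at 476, 489.8 and 463 CPM (log2 fold change -0.63, SE 0.049, edgeR adjusted p = 4.4e-14). All 3 genes were at 0.64 to 0.65 times their control level, with no overlap. Rps28, which did not pass, was at 341, 302 and 303 CPM against 336, 310.2 and 339.8 CPM, overlapping libraries (log2 fold change -0.060, edgeR adjusted p = 0.43).

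BSJ-04-0146, at the same 0.1 µM, gave a smaller and more mixed decrease. In all 61 members fell, 2 rose and 13 did not pass, where 26.9% of all genes fell and 27.7% rose. The median log2 fold change was -0.23 (a 14.7% decrease) and the range was -0.45 to 0.19. With library totals in place of TMM the median was -0.12 and 6 members rose. In 2 members the libraries lay wholly above DMSO, as in 30.2% of all genes, and in 60 wholly below, as in 29.1%.

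Rpl7a was at 1088, 1085 and 979 CPM with BSJ-04-0146 (log2 fold change -0.45, SE 0.035, edgeR adjusted p = 4.1e-14). Rpl7 was at 898, 882 and 791 CPM (log2 fold change -0.44, SE 0.036, edgeR adjusted p = 1.5e-13). Rpl4, a tunnel protein, was at 1279, 1308 and 1206 CPM against 1666, 1633 and 1671 CPM in DMSO (log2 fold change -0.39, SE 0.033, edgeR adjusted p = 2.9e-13). These were the largest decreases, with no library in common with the DMSO range.

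The largest rise with BSJ-04-0146 was that of Rps28, at 349.5, 389.5 and 389 CPM against 336, 310.2 and 339.8 CPM in DMSO (log2 fold change 0.19, SE 0.061, edgeR adjusted p = 0.0067). Its treated libraries lay above DMSO, but the call was lost with DESeq2 (adjusted p = 0.058) and without DMSO replicate 2. The count of 2 rising members became 1 without DMSO replicate 1, DMSO replicate 3 or BSJ-04-0146 replicate 2, and 0 without DMSO replicate 2.

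**Figure D3:**
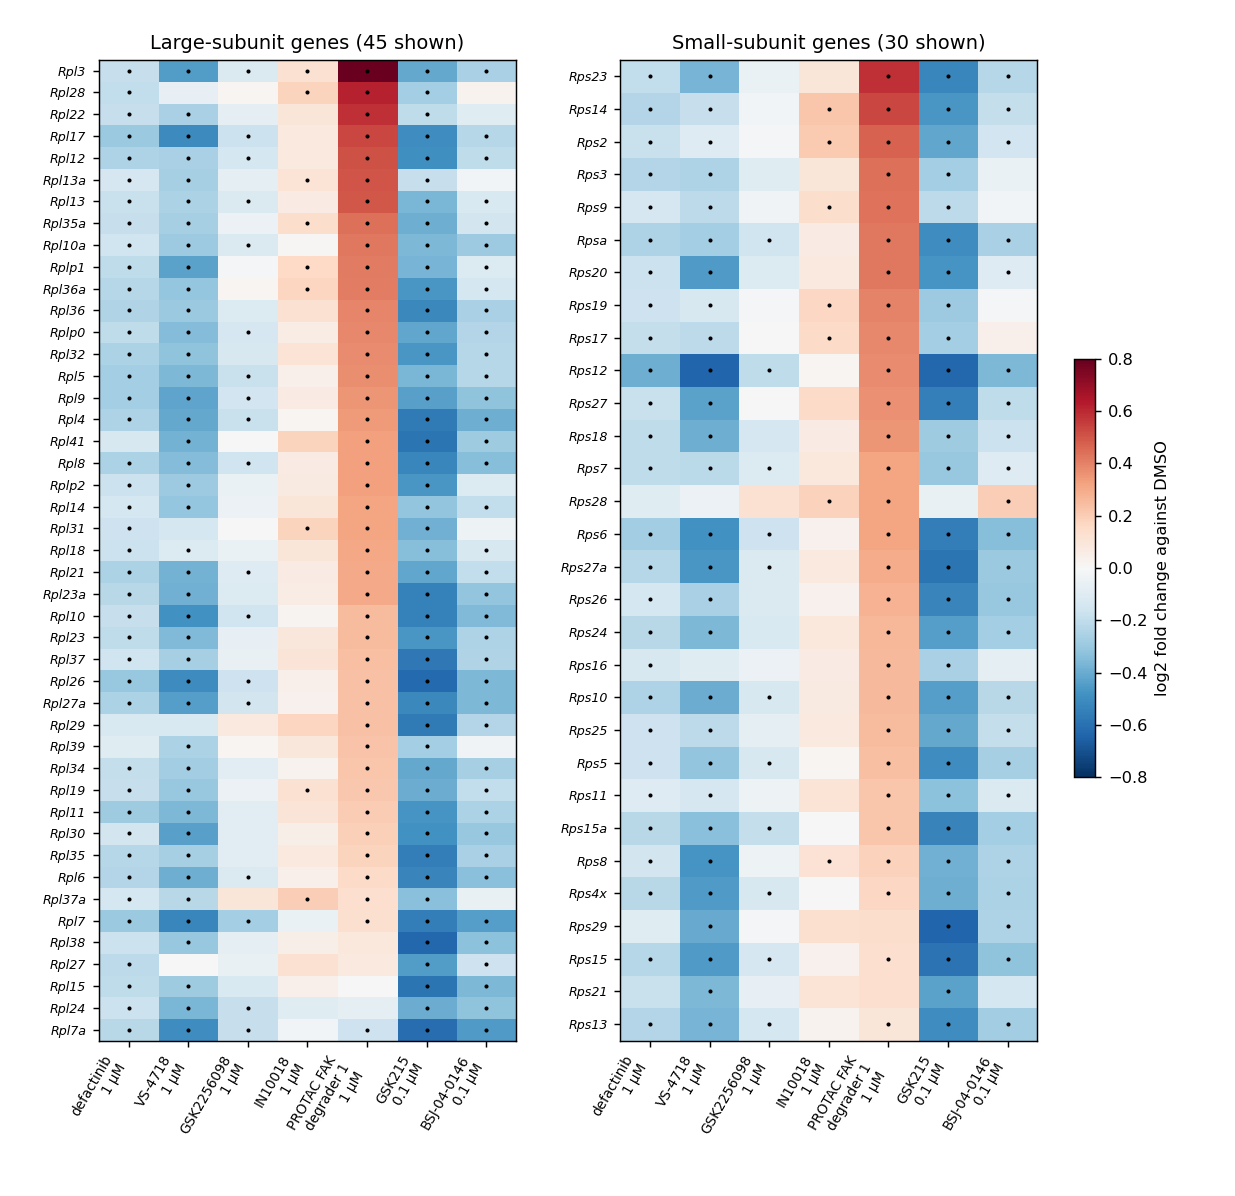
Log2 fold change against DMSO of 45 of the 46 large-subunit and all 30 small-subunit genes (rows, ordered by PROTAC FAK degrader 1) for the 7 drugs (columns), from blue (lower) to red (higher). A dot marks an adjusted p under 0.05; with PROTAC FAK degrader 1 most rows are dotted and red and Rpl7a is dotted and blue, and with GSK215 every row but Rps28 is dotted and blue.

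The 2 degraders given at 0.1 µM were compared directly. With GSK215 72 members were lower than with BSJ-04-0146 and 4 did not pass, beside 12.6% of all genes being lower and 9.88% higher, at a median log2 difference of -0.23 (14.5% lower). No member was higher by edgeR, unadjusted p, DESeq2 or limma. Rps29 was at 97.7, 96.1 and 91.9 CPM with GSK215 and 114, 129 and 129 CPM with BSJ-04-0146 (log2 difference -0.39, edgeR adjusted p = 4.3e-04), and Rps20 at 284, 276 and 279 CPM against 353, 379 and 348 CPM (log2 difference -0.36, edgeR adjusted p = 2.7e-08). The libraries of the 2 degraders did not overlap in either gene.

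The 4 that did not pass were Rpl10a, Rpl22, Rpl24 and Rps18, with log2 differences of -0.064, -0.11, -0.075 and -0.11. Their 95% intervals ran from -0.14 to 0.012 for Rpl10a, -0.20 to -0.015 for Rpl22, -0.18 to 0.030 for Rpl24 and -0.22 to -0.0062 for Rps18. None of the 4 intervals reached the median difference of the set, and 2 of them held 0. The 4 were picked because they missed the threshold in this comparison, so this does not set them apart from the rest.

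PROTAC FAK degrader 1 and defactinib, both at 1 µM, made the second of 2 pairs compared at equal dose. Of the 76 genes 74 were higher with the degrader and 2 did not pass, beside 34.9% of all genes being higher and 34% lower, with a median log2 difference of 0.50 (41.3% higher). No member was lower by edgeR, unadjusted p, DESeq2 or limma. In 72 members the libraries of the degrader lay wholly above those of defactinib and in 0 wholly below, as in 35.5% and 34.7% of all genes. Rpl3 was at 1614, 1483 and 1433 CPM against 771, 768 and 763 CPM with defactinib, 1.97-fold higher (log2 difference 0.98, edgeR adjusted p = 8.9e-25), and Rpl17 at 950.2, 899 and 859 CPM against 506, 522 and 494 CPM (log2 difference 0.83, edgeR adjusted p = 1.7e-21). Rpl7a differed by 0.060 (95% interval -0.014 to 0.13) and Rpl24 by 0.10 (0.0020 to 0.20) on the log2 scale, with edgeR adjusted p of 0.12 and 0.053. Without PROTAC FAK degrader 1 replicate 1 the median was 0.44.

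**Figure D4:**
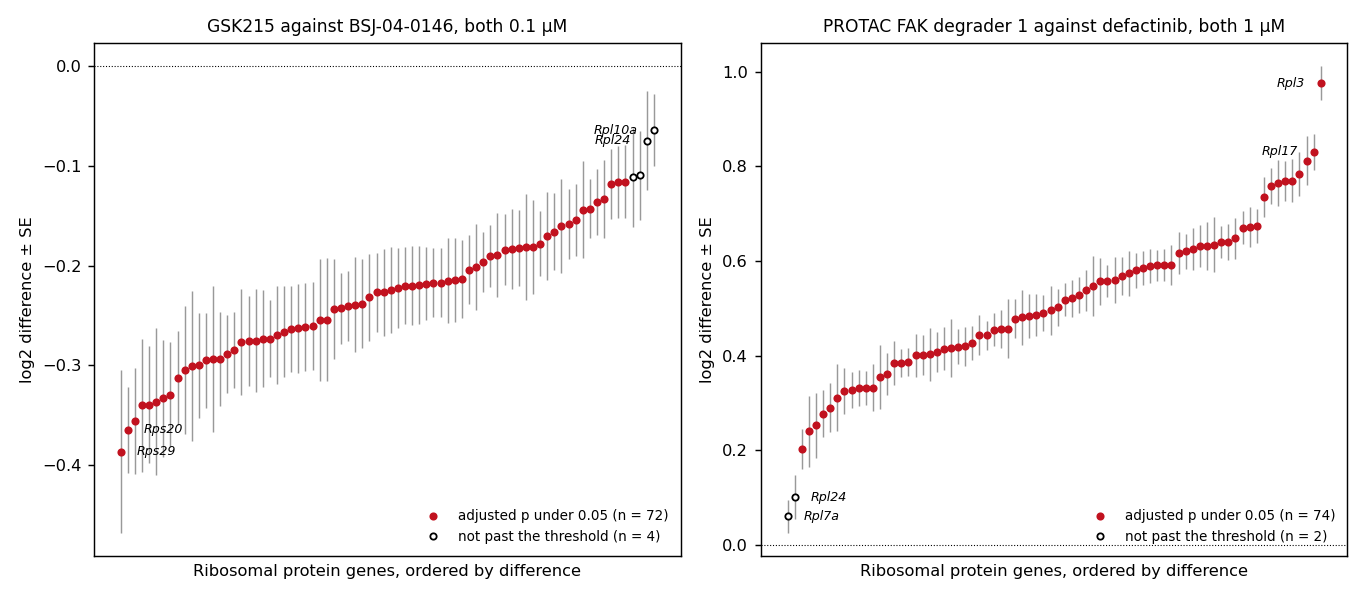
Log2 difference ± SE of each ribosomal protein gene between drugs given at equal dose, GSK215 against BSJ-04-0146 at 0.1 µM (left) and PROTAC FAK degrader 1 against defactinib at 1 µM (right), ordered by size. Filled points passed an adjusted p of 0.05 (72 and 74 of 76); every point is below 0 on the left and above 0 on the right.

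Both subunits moved in the same direction with each of these 3 drugs. With PROTAC FAK degrader 1 28 of 30 small-subunit and 41 of 46 large-subunit genes rose, at a median log2 fold change of 0.31 in each. With GSK215 29 and 45 fell, at -0.44 and -0.46, and with VS-4718 28 and 41 fell, at -0.35 and -0.31. Over all genes 34.1% rose with the first drug and 27.2% and 18.9% fell with the others. A difference between the subunits was not tested. The groups of members described next are parts of the same set, whose counts for each drug are given above.

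The 3 proteins of the P stalk, Rplp0, Rplp1 and Rplp2, recruit elongation factors to the large subunit. All 3 fell with defactinib, VS-4718 and GSK215 (11%, 18.9% and 27.2% of all genes) and all 3 rose with PROTAC FAK degrader 1 (34.1% of all genes), at log2 fold changes of 0.38, 0.42 and 0.33. Rplp0 was at 2367, 2335 and 2272 CPM in DMSO, 3116, 3002 and 2986 CPM with PROTAC FAK degrader 1 and 1684, 1753 and 1780 CPM with GSK215. With BSJ-04-0146 Rplp0 fell (log2 fold change -0.23). Rplp1 and Rplp2 each had a log2 fold change of -0.11, and only Rplp1 passed (edgeR adjusted p = 0.032 and 0.077). Rplp1 was at 726, 819 and 758 CPM against 851, 821 and 815 CPM in DMSO, overlapping libraries. Rplp1 alone of the 3 rose with IN10018 (log2 fold change 0.16, SE 0.044, edgeR adjusted p = 0.012), and its call was lost without DMSO replicate 3 or IN10018 replicate 3 (edgeR adjusted p = 0.059 and 0.062) and with GC content and length trends removed (0.16).

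Rps6, the substrate of S6 kinase downstream of mTOR, was at 734, 707 and 704 CPM in DMSO. It was at 497, 483 and 481 CPM with GSK215 (log2 fold change -0.55, SE 0.035, edgeR adjusted p = 7.0e-17), 507, 498 and 525 CPM with VS-4718 (log2 fold change -0.49, SE 0.034, edgeR adjusted p = 1.1e-14) and 571, 588 and 538 CPM with BSJ-04-0146 (log2 fold change -0.34, SE 0.034, edgeR adjusted p = 6.2e-11). It fell with defactinib and GSK2256098 too, at log2 fold changes of -0.28 and -0.17. Only with PROTAC FAK degrader 1 did it rise, to 945, 870.4 and 849 CPM (log2 fold change 0.31, SE 0.034, edgeR adjusted p = 1.7e-10), and with IN10018 it was at 732, 728 and 739 CPM (edgeR adjusted p = 0.56). Messenger levels do not show the phosphorylation of the protein.

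Rpl5 and Rpl11 bind 5S ribosomal RNA and, outside the ribosome, hold back Mdm2. Rpl5 was at 887, 859.7 and 861 CPM in DMSO and 1144, 1150 and 1075 CPM with PROTAC FAK degrader 1 (log2 fold change 0.37, SE 0.033, edgeR adjusted p = 7.6e-13), and Rpl11 at 663, 629.7 and 634 CPM and 802, 718 and 700.2 CPM (log2 fold change 0.21, SE 0.039, edgeR adjusted p = 1.2e-05). Both fell with defactinib, VS-4718, GSK215 and BSJ-04-0146. With GSK2256098 Rpl5 fell (log2 fold change -0.18) and Rpl11 had a log2 fold change of -0.083 (edgeR adjusted p = 0.18).

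At the mRNA channel and decoding site (Rps2, Rps3, Rps15, Rps23 and Rps27a), 5 of 5 rose with PROTAC FAK degrader 1 (34.1% of all genes) and 5 of 5 fell with defactinib, VS-4718 and GSK215 (11%, 18.9% and 27.2%). Rps27a, made as a fusion with ubiquitin, was at 696, 689 and 690.1 CPM in DMSO and 467, 456 and 463 CPM with GSK215 (log2 fold change -0.58, SE 0.038, edgeR adjusted p = 2.7e-16). Rps3, which also has a role in DNA repair, was at 1088, 1206 and 1046 CPM with BSJ-04-0146 against 1202, 1143 and 1124 CPM in DMSO, overlapping libraries (log2 fold change -0.054, edgeR adjusted p = 0.29). Of 12 proteins around the tunnel exit and the Rack1 side of the small subunit, 12 rose with PROTAC FAK degrader 1 (34.1% of all genes), 12 fell with GSK215 (27.2%), and 6 fell with BSJ-04-0146 (26.9%). Over the whole set of 76, 69 rose with the first of these drugs, and 74 and 61 fell with the others. The 6 of 12 with BSJ-04-0146 thus lay below the share in the set.

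Rpl10, whose loading completes the large subunit, and Rps4x are carried on the X chromosome. Rpl10 was at 918, 916 and 919.8 CPM in DMSO, 635, 622 and 632 CPM with GSK215 (log2 fold change -0.54, SE 0.031, edgeR adjusted p = 6.1e-18) and 1133, 1092 and 1064 CPM with PROTAC FAK degrader 1 (log2 fold change 0.26, SE 0.031, edgeR adjusted p = 2.0e-09). Rps4x was at 1095, 1091 and 1094 CPM, 793, 799 and 804 CPM with VS-4718 (log2 fold change -0.45, SE 0.029, edgeR adjusted p = 1.1e-15) and 1224, 1235 and 1220 CPM with PROTAC FAK degrader 1 (log2 fold change 0.17, SE 0.029, edgeR adjusted p = 4.8e-06). The 4 X-linked members, with Rpl36a and Rpl39, all fell with VS-4718 and GSK215 (18.9% and 27.2% of all genes) and all rose with PROTAC FAK degrader 1 (34.1%). Of these 4, 3 fell with defactinib (11% of all genes), 3 with BSJ-04-0146 (26.9%) and 2 with GSK2256098 (6.09%), and 1 rose with IN10018 (6.44%). Rpsa, which also serves as a laminin receptor precursor, was at 1695, 1692 and 1656 CPM in DMSO, 2347, 2219 and 2197 CPM with PROTAC FAK degrader 1 and 1164, 1181 and 1224 CPM with GSK215 (log2 fold changes 0.42 and -0.50).

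Inherited loss of 1 copy of many of these genes causes Diamond-Blackfan anaemia, a failure of red cell production. Of 18 such members 16 fell with defactinib, 15 with VS-4718, 4 with GSK2256098, 17 with GSK215 and 14 with BSJ-04-0146, while 15 rose with PROTAC FAK degrader 1 and 5 with IN10018. Over all genes 11%, 18.9%, 6.09%, 27.2% and 26.9% fell with the first 5 drugs, and 34.1% and 6.44% rose with the last 2. Rps19, the gene most often affected, was at 416, 389.9 and 413 CPM in DMSO, 602, 503 and 498 CPM with PROTAC FAK degrader 1 (log2 fold change 0.40, SE 0.047, edgeR adjusted p = 1.5e-09) and 330.1, 327 and 339 CPM with GSK215 (log2 fold change -0.29, SE 0.048, edgeR adjusted p = 2.3e-06). With BSJ-04-0146 it was at 378, 419.7 and 406 CPM, overlapping the controls (log2 fold change -0.018, edgeR adjusted p = 0.78). Rps26 was at 619, 594 and 597 CPM in DMSO and 424, 416 and 416 CPM with GSK215 (log2 fold change -0.53, SE 0.042, edgeR adjusted p = 1.1e-13), and was at 463, 524 and 479.8 CPM with BSJ-04-0146 (log2 fold change -0.30).

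**Figure D5:**
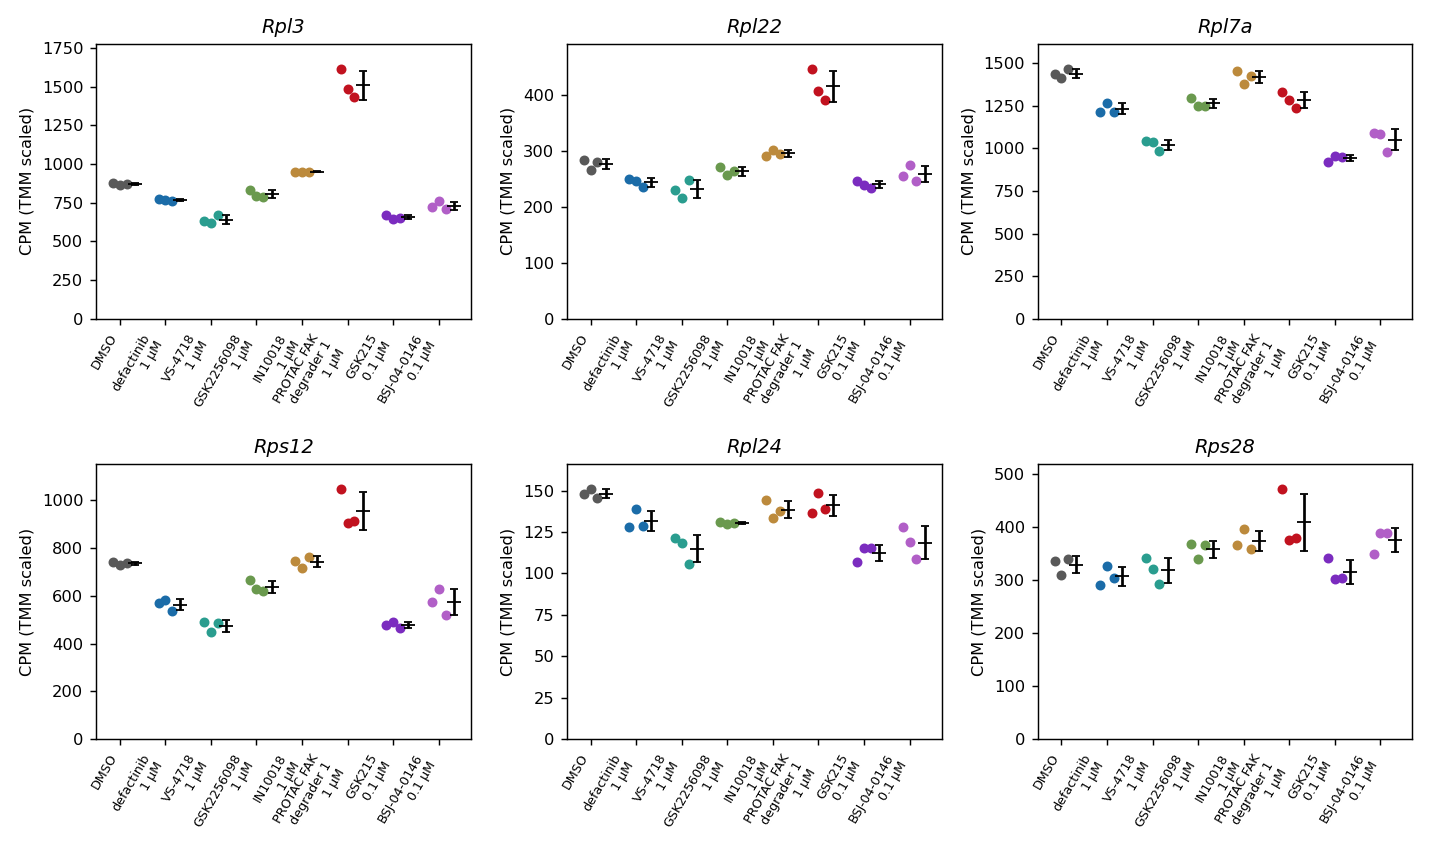
CPM of 6 ribosomal protein genes in each library of the 8 groups, on axes that start at 0. Points are libraries, bars are mean ± SD of 3; Rpl3, Rpl22 and Rps12 are highest with PROTAC FAK degrader 1, Rpl7a is lowest with GSK215, Rpl24 is highest in DMSO, and the 3 Rps28 libraries of BSJ-04-0146 (349.5 to 389.5 CPM) sit above the DMSO libraries.

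Members with and without a long pyrimidine run at the annotated start had like medians. The 25 genes with a run of at least 8 bases and the 31 with a window but a shorter run had median log2 fold changes of 0.31 and 0.32 with PROTAC FAK degrader 1, -0.44 and -0.43 with GSK215, -0.29 and -0.35 with VS-4718 and -0.18 and -0.20 with defactinib. Rpl28 and Rpl7a, whose windows printed above hold runs of 11 and 21, lay at opposite ends with PROTAC FAK degrader 1. A run could lie anywhere in the window, before or after the annotated start. A run cut by the edge of the window, as in Rps12, counted only as far as the edge. Members without a window, Rpl3 and Rpl7 among them, were in neither group. These are descriptions, and whether a TOP tract bears on the changes was not tested.

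Members had a GC content of 41.3% to 60.8% with a median of 51.8%, against a median of 50% over all genes tested, and transcripts of 345 to 5179 bases with a median of 843, against 2605. Across the 76 members the correlation of log2 fold change with GC content lay between -0.0091 and 0.18 for the 7 drugs, and that with log2 length between -0.31 and 0.16, a description over genes that share their libraries. With the trends of GC content and length removed, fitted on the other genes, the member median was -0.51 with GSK215 and -0.29 with BSJ-04-0146.

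Reads of ribosomal protein genes can also match processed pseudogenes, and how reads matching several places were handled is not given in the sources used here. The 280 genes named as ribosomal protein pseudogenes took 0.137% to 0.267% of counts as group means, 0.176% in DMSO and 0.267% with PROTAC FAK degrader 1. Most of this was Rps2-ps10, which averaged 27700 counts a library against 13274 for Rps2 itself, so that the level of Rps2 is uncertain. Rps2-ps10 rose by 0.42 on the log2 scale with PROTAC FAK degrader 1 (edgeR adjusted p = 7.3e-11) and its log2 fold change with GSK215 was -0.57 (edgeR adjusted p = 5.0e-14), a fall, beside 0.47 and -0.41 for Rps2. Rpl3-ps1 averaged 5579 counts against 18666 for Rpl3 and had a log2 fold change of 1.07 with PROTAC FAK degrader 1 (edgeR adjusted p = 6.8e-20). Rpl34-ps1 averaged 1868 counts against 3436 for Rpl34, so that the level of Rpl34 is uncertain too. With GSK2256098 their log2 fold changes were -0.46 and -0.092 (edgeR adjusted p = 2.4e-06 and 0.20).

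Ribosomal protein genes with other names were read from a list of 10, of which 8 were tested. Of these 4 rose and 2 fell with PROTAC FAK degrader 1 (34.1% and 32.7% of all genes), 6 fell and 1 rose with GSK215 (27.2% and 27.4%), 5 fell with BSJ-04-0146 (26.9%) and 3 rose with IN10018 (6.44%). With VS-4718 2 fell (18.9%), with defactinib 3 (11%) and with GSK2256098 1 (6.09%). The median with VS-4718 was -0.041, where the member median was -0.32. The 1 that rose with GSK215 was Rpl3l, at a mean of only 0.56 CPM against 0.22 CPM in DMSO. Rack1, a scaffold on the small subunit, was at 1633, 1626 and 1615 CPM in DMSO, 1959, 1890 and 1843 CPM with PROTAC FAK degrader 1 (log2 fold change 0.22, SE 0.037, edgeR adjusted p = 1.7e-06) and 1168, 1233 and 1234 CPM with GSK215 (log2 fold change -0.42, SE 0.038, edgeR adjusted p = 1.7e-12). It rose with the one and fell with the other, as most members did. Fau, which encodes a small-subunit protein fused to a ubiquitin-like one, was at 744, 649 and 639 CPM with PROTAC FAK degrader 1 against 481, 464 and 478 CPM in DMSO (log2 fold change 0.51, SE 0.043, edgeR adjusted p = 1.8e-13). Rpl7l1, a nucleolar relative of Rpl7, went the other way, at 158, 166 and 161 CPM against 252, 239 and 239 CPM (log2 fold change -0.59, SE 0.033, edgeR adjusted p = 5.8e-19). Rpl22l1, the paralogue of Rpl22, was at 47.0, 48.5 and 53.1 CPM with VS-4718 against 79.2, 71.9 and 70.9 CPM (log2 fold change -0.58, SE 0.049, edgeR adjusted p = 2.2e-12). Rps3a1, on none of the lists and chosen after its values were seen, had log2 fold changes of 0.41 with PROTAC FAK degrader 1 and -0.37 with GSK215 (edgeR adjusted p = 2.7e-15 and 1.2e-13).

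Mitochondrial ribosomal protein genes, which build the separate ribosome of the mitochondrion, were counted for comparison. Of 78 tested, 20 rose and 39 fell with PROTAC FAK degrader 1, beside 34.1% and 32.7% of all genes, at a median log2 fold change of -0.13, where the cytosolic median was 0.31. With GSK215 60 fell and 3 rose (median -0.28), beside 27.2% and 27.4% of all genes. With BSJ-04-0146 45 fell and 10 rose (-0.15), beside 26.9% and 27.7%, and with VS-4718 26 fell and 14 rose (-0.034), beside 18.9% and 20.4%. With defactinib 19 fell (-0.099), beside 11% of all genes, and with GSK2256098 17 fell and 1 rose (-0.053), beside 6.09% and 6.36%. With IN10018 1 rose and 1 fell, beside 6.44% and 6.85%. Their share of counts was 0.430% ± 0.00945 with PROTAC FAK degrader 1 and 0.438% ± 0.00586 in DMSO.

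Translation factors and other mRNAs known to carry TOP tracts were counted next. Of 21, 10 rose and 7 fell with PROTAC FAK degrader 1, beside 34.1% and 32.7% of all genes. With GSK215 20 fell, with BSJ-04-0146 17 fell and 1 rose, with VS-4718 19 fell, with defactinib 18 fell and with GSK2256098 14 fell, beside 27.2%, 26.9%, 18.9%, 11% and 6.09% of all genes falling. Over all genes 27.7% rose with BSJ-04-0146. With IN10018 2 rose and 1 fell, beside 6.44% and 6.85% of all genes, at a median log2 fold change of 0.0062. Eif4b, an initiation factor, was at 1641, 1603 and 1565 CPM with PROTAC FAK degrader 1 against 1069, 1049 and 1055 CPM in DMSO (log2 fold change 0.60, SE 0.027, edgeR adjusted p = 5.9e-22). Eef1d, an exchange factor for elongation factor 1A, was at 218, 205 and 202 CPM against 334, 341 and 337 CPM (log2 fold change -0.70, SE 0.034, edgeR adjusted p = 7.3e-21). Npm1, a nucleolar chaperone of ribosome assembly, was at 1772, 1713 and 1737 CPM with GSK215 against 3020, 2937 and 2970 CPM (log2 fold change -0.77, SE 0.030, edgeR adjusted p = 3.0e-23).

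Long non-coding hosts of small nucleolar RNAs, which also start with pyrimidine tracts, fell in 7 of 8 cases with VS-4718, with GSK215 and with BSJ-04-0146 (18.9%, 27.2% and 26.9% of all genes), and 5 rose and 1 fell with PROTAC FAK degrader 1 (34.1% and 32.7%). With defactinib 1 rose and 1 fell (11.4% and 11%), and with GSK2256098 3 fell (6.09%). With IN10018 2 of the 8 fell, beside 6.85% of all genes, at a median log2 fold change of -0.076, where the ribosomal protein median was 0.081. Gas5 was at 207, 206 and 212 CPM with VS-4718 against 335, 328 and 344 CPM in DMSO (log2 fold change -0.69, SE 0.037, edgeR adjusted p = 4.1e-18). Snhg5 was at 32.3, 36.2 and 37.3 CPM with BSJ-04-0146 against 70.0, 69.5 and 69.2 CPM (log2 fold change -0.98, SE 0.049, edgeR adjusted p = 8.5e-20). Between the 2 degraders at 0.1 µM, 6 of the 8 were higher with GSK215, beside 9.88% of all genes, whereas 72 of 76 ribosomal protein genes were lower.

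Of 8 tested chaperones and modifiers dedicated to ribosomal proteins, 3 rose and 4 fell with PROTAC FAK degrader 1, close to what the 34.1% and 32.7% over all genes would give for 8 genes. Grwd1, which escorts Rpl3, was at 35.3, 33.8 and 33.1 CPM against 82.3, 85.5 and 87.0 CPM in DMSO (log2 fold change -1.32, SE 0.042, edgeR adjusted p = 1.6e-26), and Heatr3, which brings in Rpl5, was at 79.9, 85.0 and 78.9 CPM against 169, 166 and 170.0 CPM (log2 fold change -1.05, SE 0.035, edgeR adjusted p = 3.4e-26). Rpl3 and Rpl5 themselves rose in these libraries. With GSK215 6 of the 8 fell, and with BSJ-04-0146 6 fell and 1 rose, beside 27.2% and 26.9% of all genes falling and 27.7% rising with BSJ-04-0146. With VS-4718 2 rose and 4 fell, beside 20.4% and 18.9%. With defactinib 3 fell and with GSK2256098 1 fell, beside 11% and 6.09%. With IN10018 1 rose and 2 fell, beside 6.44% and 6.85%.

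A list of 15 genes held members of the mTOR and LARP1 pathway and regulators, Myc included. Of these 7 rose and 7 fell with PROTAC FAK degrader 1 (34.1% and 32.7% of all genes), 4 rose and 10 fell with GSK215 (27.4% and 27.2%), 5 rose and 8 fell with BSJ-04-0146 (27.7% and 26.9%), and 4 rose and 3 fell with IN10018 (6.44% and 6.85%). With VS-4718 3 rose and 4 fell (20.4% and 18.9%). With defactinib 4 fell (11%) and with GSK2256098 5 fell (6.09%), and none rose with either. The shares rising with GSK215, BSJ-04-0146 and VS-4718 were near those over all genes. Ddit4, an inhibitor of mTOR complex 1 induced by stress, was at 159.9, 151 and 144 CPM in DMSO, 547, 495 and 483 CPM with PROTAC FAK degrader 1 (log2 fold change 1.75, SE 0.041, edgeR adjusted p = 1.0e-30), 257, 252 and 270.3 CPM with IN10018 (log2 fold change 0.78, SE 0.042, edgeR adjusted p = 6.6e-17) and 34.3, 37.2 and 33.7 CPM with VS-4718 (log2 fold change -2.11, SE 0.049, edgeR adjusted p = 2.4e-29). It also fell with defactinib, GSK2256098, GSK215 and BSJ-04-0146, at log2 fold changes of -0.53, -0.95, -1.75 and -1.19. Sesn2, another stress-induced inhibitor of the pathway, was at 29.4, 27.4 and 29.1 CPM in DMSO, 69.5, 64.6 and 66.4 CPM with PROTAC FAK degrader 1 (log2 fold change 1.22, SE 0.054, edgeR adjusted p = 3.3e-22) and 13.8, 12.3 and 13.1 CPM with GSK215 (log2 fold change -1.13, SE 0.069, edgeR adjusted p = 4.4e-17). Whether these genes bear on the ribosomal protein levels was not tested.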

How the data were processed

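Whole-number counts per gene from 24 libraries of MS03 cells were used as deposited. The submitters' processing notes name Trimmomatic 0.36, STAR 2.5.2b, featureCounts of Subread 1.5.2 and GRCm38. The annotation release, the strand setting and the treatment of reads matching several places are not given in the sources used here. No replicate was pooled, and the authors' counts held 49315 genes, with library totals of 14472462 to 27449516.

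Counts were normalised by TMM, filtered with filterByExpr and fitted over all 8 groups by edgeR 4.0.16 (quasi-likelihood test, 16 residual degrees of freedom, two-sided, Benjamini-Hochberg adjustment over 16070 genes, R 4.3.3). Alternatives were DESeq2 1.42.0, limma 3.58.1 on log2(CPM + 4), other scalings and filters, each library left out, and removal of GC content and length trends. Counts were simulated for GSK215 against DMSO with a small part of the genes changed, all drawn from above a minimum level. Of these genes, 80% of those changed by 1.2-fold and 99% of those changed by 1.5-fold were recovered. The rates do not cover genes with low counts or a comparison in which many genes change. Transcript length and GC content came from GENCODE M21 (48970 gene IDs matched), and start windows from RefSeq on GRCm38.p6. A motif or run was counted in each window whole. Replicate counts differed by more than sampling noise in each of the 24 pairs of libraries within a group.

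The members and the gene lists were chosen with earlier results of these data known. Members named were, for each drug, up to 3 with the largest change in each direction among those past the threshold with no overlap of libraries, up to 2 for each pair at equal dose, the 3 highest and 3 lowest in level and a fixed list of 14, and of the other lists genes with the largest changes. Some items that this rule names are not reported here.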

Additional observations from a re-analysis of the deposited data

How the results depend on the processing

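The member set was the same with no minimum level and with 100 CPM in place of 20 CPM. For 128 results on single members, 1792 values were computed under alternative settings. Of these 1763 kept their direction and their side of the threshold, 29, in 10 of the results, lost significance, and none reversed. Rps28 with BSJ-04-0146 was lost with DESeq2 (adjusted p = 0.058) and without DMSO replicate 2. In each case the cause was not tested.

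With library totals in place of TMM the medians were -0.33 with GSK215, -0.12 with BSJ-04-0146, 0.39 with PROTAC FAK degrader 1 and 0.56 for the latter against defactinib, and 6 members rose with BSJ-04-0146. Under this scaling the median of all genes was 0.143, 0.126 and 0.0862 for the 3 degraders in this order, against 0.0211, 0.0176 and 0.00452 under TMM, and relative to it the member medians were -0.474, -0.247 and 0.305, against -0.475, -0.248 and 0.305. It moved the all-gene split of higher and lower calls from 4407 and 4379 to 6190 and 2867 with GSK215, from 4451 and 4320 to 6018 and 2966 with BSJ-04-0146 and from 3273 and 3030 to 4015 and 2394 with VS-4718. With GC content and length trends removed, an alternative chosen after seeing the data, the medians were -0.51 for GSK215 and -0.29 for BSJ-04-0146, 5 members rose and 1 fell with IN10018, and 1 rose with BSJ-04-0146. With DESeq2 1 member rose with BSJ-04-0146. With no filter on low counts 1 rose with GSK2256098, 29 with IN10018 and 1 with BSJ-04-0146. In fits of only the 6 libraries compared, 2 rose with GSK2256098, 46 rose and 1 fell with IN10018, and 2 fell with PROTAC FAK degrader 1. Calls over all genes were counted only for the main fit and the scalings. Member counts under the other settings have no such share beside them. With a minimum change of 1.2-fold, 8 fell with defactinib, 1 fell with GSK2256098, 0 rose with IN10018, 44 rose and 0 fell with PROTAC FAK degrader 1, 0 rose and 26 fell with BSJ-04-0146, and 25 were lower with GSK215 than with BSJ-04-0146.

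With mitochondrially encoded genes left out, the ribosomal protein share was 5.17% in DMSO, 4.56% with defactinib, 4.24% with VS-4718, 4.87% with GSK2256098, 5.47% with IN10018 and 4.21% with GSK215. With pseudogenes added it was 5.19%, 4.54%, 4.27%, 4.88%, 5.52% and 4.18% in the same order.

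Leaving out 1 library at a time, the median ran from 0.24 to 0.35 for PROTAC FAK degrader 1 and from 0.44 to 0.55 for PROTAC FAK degrader 1 against defactinib, lowest without replicate 1 of that degrader in both. Members rising ran from 0 to 2 with BSJ-04-0146 and from 5 to 16 with IN10018, and members falling from 18 to 38 with GSK2256098.

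A fit with the replicate number as a block gave 67 falling with defactinib, 70 with VS-4718, 32 with GSK2256098, 74 with GSK215 and 61 with BSJ-04-0146, and 17 rising with IN10018 and 69 with PROTAC FAK degrader 1, and moved no count by over 1.5 times. Same-numbered libraries did not deviate together, with correlations of -0.253 to 0.197 over 84 pairs and 9 above 0.1, so the numbers were taken as names. How far counting depth, beside the 3 libraries per group, limited these genes was not tested.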
